A study of Mus musculus with 61 samples.

Results

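A set of 5 genes that the fatty-acid receptors of muscle are known to control was followed in skeletal muscle: the acyl-CoA thioesterases Acot1 and Acot2, the mitochondrial carriers Ucp2 and Ucp3, and the secreted lipase inhibitor Angptl4. They were taken by gene symbol, 5 of the 19462 genes measured, and the estimated counts of Acot1 and Acot2 were added because their sequences are nearly the same. The 61 libraries came from 8 inbred mouse strains, the founders of the Diversity Outbred population: AJ, B6, 129, NZO and WSB with 8 libraries each, and NOD, Cast and PWK with 7 each. All strains carried the same diet label, a high-fat, high-sugar diet with 45 percent fat, so no group was fed otherwise and no strain served as a control. The Cast, PWK and WSB lines were bred from wild mice, NZO mice become obese and NOD mice are known for autoimmune diabetes. Sex, age and batch are not among the labels, nor is it stated that every library stands for its own animal, so the p-values rest on the spread among libraries, which may be partly technical. The comparison asks how the level of each gene in muscle differed with strain on this diet.

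PPARα, PPARδ and PPARγ are nuclear receptors that bind fatty acids and, as partners of RXR receptors, switch on genes whose promoters or enhancers carry repeats of the letters AGGTCA. In muscle they are known for the response to fasting, exercise and dietary fat, when fatty acids replace glucose as the fuel. Acot1 in the cytosol and Acot2 in mitochondria split long-chain acyl-CoA into free fatty acid and CoA. Ucp3 is an inner-membrane carrier of skeletal muscle and brown fat, whereas its close relative Ucp2 is found in many tissues and is abundant in immune cells. Angptl4 is secreted by muscle, fat and liver and blocks lipoprotein lipase, the enzyme that releases fatty acids from circulating lipoproteins.

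Estimated counts summed to between 17.1 and 65.2 M in a library (median 33.7 M). Summed markers of muscle fibres, 10 genes that include Acta1 and Ckm, held 117000 to 216000 CPM (counts scaled to the total of the library) in all 61 libraries. In library B6_5 the ribosomal RNA gene Rn18s-rs5 took 46.3% of the counts, against at most 9.76% elsewhere, and leaving that library out changed a single member call, that of Angptl4 in Cast. In all strains, some libraries held more Xist and others more Ddx3y, transcripts of females and of males, 31 and 30 libraries in all.

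Acot2 (ENSMUSG00000021226, chr12:83987861-83993873, plus strand, GRCm38) and Acot1 (ENSMUSG00000072949, chr12:84009502-84017670, plus strand) are neighbours with 15629 bases between them. Their coding sequences, 1359 and 1257 bases in the principal GENCODE transcripts, were 95.6% identical over 1232 aligned bases. The longest stretch without a difference ran for 273 bases, and 31.0% of all 100-base windows of the Acot1 coding sequence occurred unchanged in Acot2. The stretches below show why a read can often not be given to one of the genes. The first pair is the most divergent aligned window, with the 14 differing bases in capitals, and the second pair is the start of the longest shared run, with positions counted from the A of the start codon.
Acot1 coding bases 797 to 886: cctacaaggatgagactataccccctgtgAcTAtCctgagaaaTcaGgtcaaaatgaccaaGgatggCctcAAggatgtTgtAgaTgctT
Acot2 coding bases 920 to 1009: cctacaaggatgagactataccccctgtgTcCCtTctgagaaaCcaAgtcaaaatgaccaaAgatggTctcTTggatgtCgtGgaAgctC
Acot1 coding bases 887 to 1006: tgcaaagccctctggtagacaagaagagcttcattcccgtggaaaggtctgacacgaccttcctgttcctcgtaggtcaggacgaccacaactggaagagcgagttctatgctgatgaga
Acot2 coding bases 1010 to 1129: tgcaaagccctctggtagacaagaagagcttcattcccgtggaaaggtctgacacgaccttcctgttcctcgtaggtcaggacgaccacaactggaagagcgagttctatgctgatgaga
The deposited count of Acot1 was not a whole number in 61 of 61 libraries and that of Acot2 in 60, as happens when reads are shared out between genes. For Ucp3 and Angptl4 no library had a fractional count, and for Ucp2 17 libraries did. The sum of Acot1 and Acot2 is therefore the main measure here, and their separate values are estimates that depend on how the shared reads were assigned. Shorter matches of over 90% identity were also found to Acot3, Acot5, Acot6 and 4732463B04Rik. Acot5 and 4732463B04Rik, which matched Acot1 at 97.7% over 264 bases, were not among the genes measured.

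Ucp3 (ENSMUSG00000032942, chr7:100472990-100486432) and Ucp2 (ENSMUSG00000033685, chr7:100493337-100502020) are also neighbours, both on the plus strand with 6905 bases between them. Their coding sequences were 77.2% identical and the longest shared run was 24 bases. Ucp2 overlaps Dnajb13 and Ucp3 overlaps Gm10603, both on the opposite strand, and whether the counting used strand is not given in the sources used here. Dnajb13 reached at most 1.19 CPM and Gm10603 at most 3.74 CPM in any library. Angptl4 (ENSMUSG00000002289, chr17:33773750-33781575, minus strand) overlaps no other gene. RefSeq promoters of GRCm38.p6 matched 4 of the 5 genes, all but Angptl4. The 250 bases before the start of Ucp3 are shown because they held the PPAR repeat unit AGGTCA 2 times on either strand, in capitals, 149 and 44 bases before the start, as the window chr7:100472741-100472990 on the plus strand.
Ucp3 promoter: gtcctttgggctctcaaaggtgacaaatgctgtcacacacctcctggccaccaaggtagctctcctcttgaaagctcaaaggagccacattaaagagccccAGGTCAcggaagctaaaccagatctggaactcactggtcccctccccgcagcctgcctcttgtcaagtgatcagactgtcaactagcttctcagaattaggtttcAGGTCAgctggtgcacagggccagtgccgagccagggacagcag
The same windows of Acot1, Acot2 and Ucp2 did not hold AGGTCA on either strand. Of 32851 promoter windows of that length, 14.0% held it. The full direct repeat AGGTCANAGGTCA was in none of the 4 windows and in 0.0335% of all promoters. These matches describe letters in a short window and say nothing of which sites a receptor uses.

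All 4 measures differed among the 8 strains by edgeR's quasi-likelihood test with Benjamini-Hochberg adjustment over 16681 genes, as did 85.5% of all genes tested. The thioesterase sum spread over 2.32 log2 units from the lowest to the highest strain (adjusted p = 6.65e-12) and Angptl4 over 1.89 (adjusted p = 1.33e-07). Ucp2 spread over 1.53 (adjusted p = 5.02e-06) and Ucp3 over 1.24 (adjusted p = 2.09e-06), against a median range of 0.91 over all genes. WSB was highest for the thioesterases, Ucp3 and Angptl4, and PWK was lowest for the thioesterases, Ucp2 and Ucp3. With so many genes differing among strains, the size and the order of the levels are what describe these genes. Per kilobase of the principal transcript, Ucp3 averaged 55.7 CPM over the strains, Acot2 10.3, Angptl4 4.68, Ucp2 4.64 and Acot1 1.79, so Ucp3 was the most abundant of the 5 genes on that scale.

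**Figure D1:**
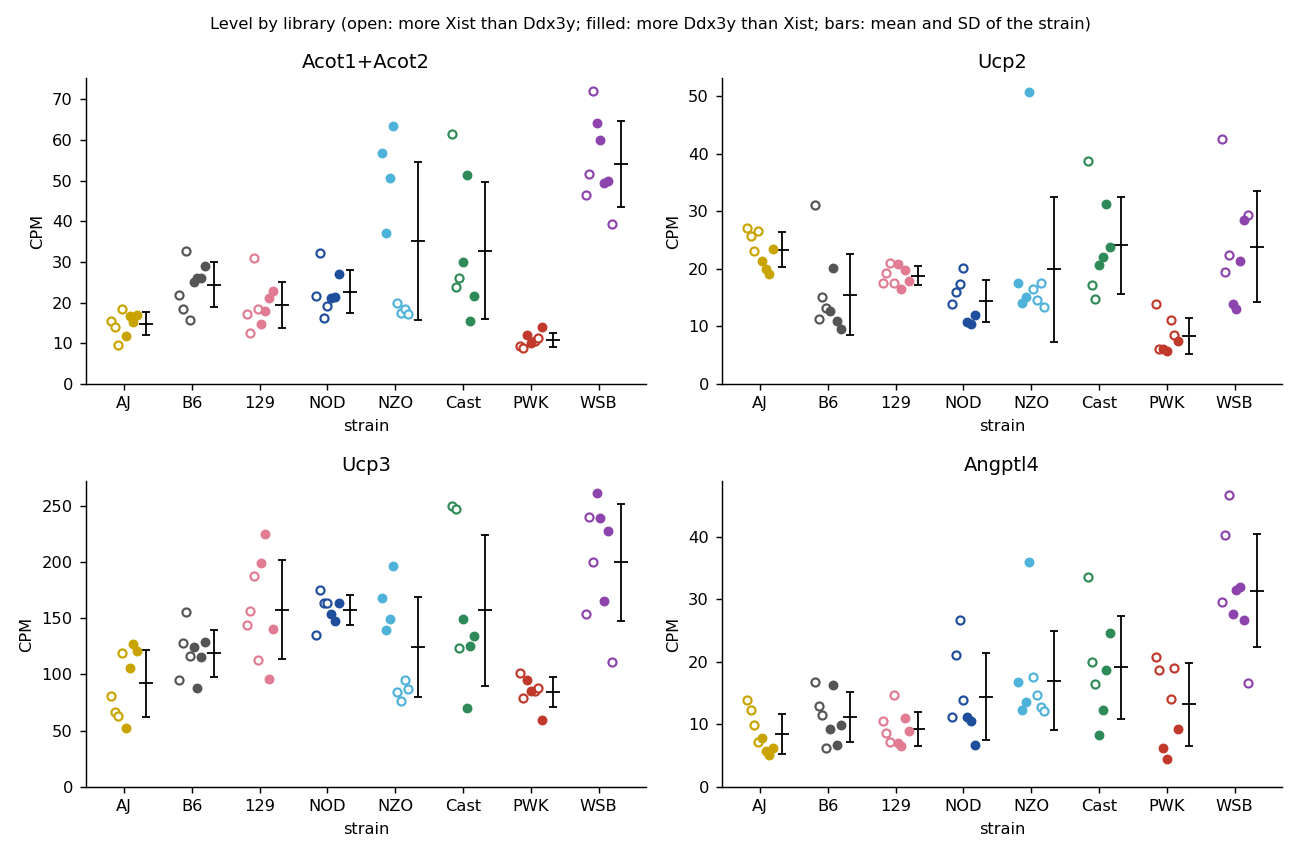
CPM of the thioesterase sum, Ucp2, Ucp3 and Angptl4 in each of the 61 libraries, by strain, with the mean and SD of each strain; open points are libraries with more Xist than Ddx3y and filled points those with more Ddx3y. The 8 WSB libraries sit between 39.3 and 72.0 CPM for Acot1+Acot2 and the 7 PWK libraries between 8.83 and 14.0, and the NZO libraries fall into 4 at 37.0 or above and 4 near 20 or below.

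The thioesterase sum was highest in WSB, at 39.3 CPM in the lowest library, 50.8 in the median and 72.0 in the highest. In PWK the lowest, median and highest libraries were at 8.83, 10.6 and 14.0 CPM. AJ was also low, with 9.67, 15.3 and 18.5 CPM. No WSB library overlapped with any library of AJ, B6, 129, NOD or PWK. The mean was 54.1 ± 10.6 CPM in WSB (SD, n = 8) and 10.8 ± 1.75 in PWK (SD, n = 7), a 4.99-fold difference.

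Against the mean of the other 7 strains, the sum was higher in WSB by 1.35 ± 0.16 log2 units (SE, adjusted p = 3.07e-10), where 21.3% of all genes were called higher. It was lower in PWK, by -1.30 ± 0.21 (adjusted p = 6.37e-07, with 20.3% of genes lower), and in AJ, by -0.79 ± 0.19 (adjusted p = 0.000717, with 14.9% lower). NZO, at +0.63 ± 0.17 (adjusted p = 0.00257, with 14.6% of genes higher), and Cast, at +0.52 ± 0.18 (adjusted p = 0.00962, with 33.8% higher), also passed. B6, 129 and NOD did not, with means of 24.3 ± 5.55, 19.5 ± 5.65 and 22.6 ± 5.32 CPM. The WSB, PWK and AJ calls held in each of the 75 alternative settings and leave-outs tried.

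NZO and Cast varied most within the strain, with coefficients of variation of 55.5% and 51.7%, against 16.1% to 29.1% in the other strains. The NZO libraries numbered 5 to 8 held 56.7, 37.0, 50.7 and 63.5 CPM of the sum, and those numbered 1 to 4 held 20, 17.4, 18.5 and 17.1. The first 4 have more Ddx3y than Xist and the other 4 more Xist. The groups also carry separate ranges of the ORSAM number, a running number in the titles whose meaning is not explained, so the 2 properties cannot be told apart in NZO. The same 4 libraries were higher in Ucp3 (139 to 196 against 76.6 to 95.3 CPM) and in Pdk4 (1290 to 2360 against 620 to 938 CPM), and lower in the summed slow-fibre markers (2700 to 3680 against 4160 to 10100 CPM), whose part in the difference was not tested. Among only the libraries with more Ddx3y than Xist, NZO was higher than the other strains by 1.17 ± 0.16 log2 units (adjusted p = 1.25e-05). Among those with more Xist it was at -0.28 ± 0.22 (adjusted p = 0.425), so the NZO call rests on 4 libraries. Over all 75 alternatives the adjusted p of NZO ran from 1.25e-05 to 0.425.

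In Cast the sum ranged from 15.4 to 61.4 CPM with a median of 26.1. Cast_1, at 61.4, and Cast_6, at 51.3, stood above the other 5 libraries, whose highest value was 29.9. Without Cast_1 the difference was 0.29 ± 0.18 (adjusted p = 0.172), and without Cast_6 0.38 ± 0.19 (adjusted p = 0.0817). Among libraries with more Ddx3y it was 0.24 ± 0.18 (adjusted p = 0.262), and with summed hepatocyte, lymphocyte and keratinocyte markers as covariates 0.40 ± 0.18 (adjusted p = 0.0505). These 4 alternatives lost the call, and the adjusted p over all alternatives ran from 0.00104 to 0.262. Summed hepatocyte markers stood at 3550 CPM in Cast_1 and 94.6 CPM in Cast_6.

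As separate estimates, Acot1 spread further than Acot2. Acot1 was at 11.6 ± 2.26 CPM in WSB and 0.975 ± 0.393 in PWK (SD, n = 8 and 7), 11.9-fold apart, and Acot2 at 42.5 ± 9.25 and 9.87 ± 1.39, 4.31-fold apart. The contrast of WSB with the other strains was 2.21 ± 0.26 log2 units for Acot1 (adjusted p = 6.34e-10) and 1.19 ± 0.15 for Acot2 (adjusted p = 1.63e-09); the difference between these contrasts was not tested. Acot1 made up a median of 22.4% of the sum in WSB, with a range of 16.7% to 26.4%. The medians were 15.0% in Cast, 12.8% in NZO and 8.15% to 11.5% in the other 5 strains. No WSB library had a share below 16.7%, and single libraries of NZO and Cast reached 30.1% and 25.7%. How sequence differences between the strains and the reference changed the split of shared reads was not tested.

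**Figure D2:**
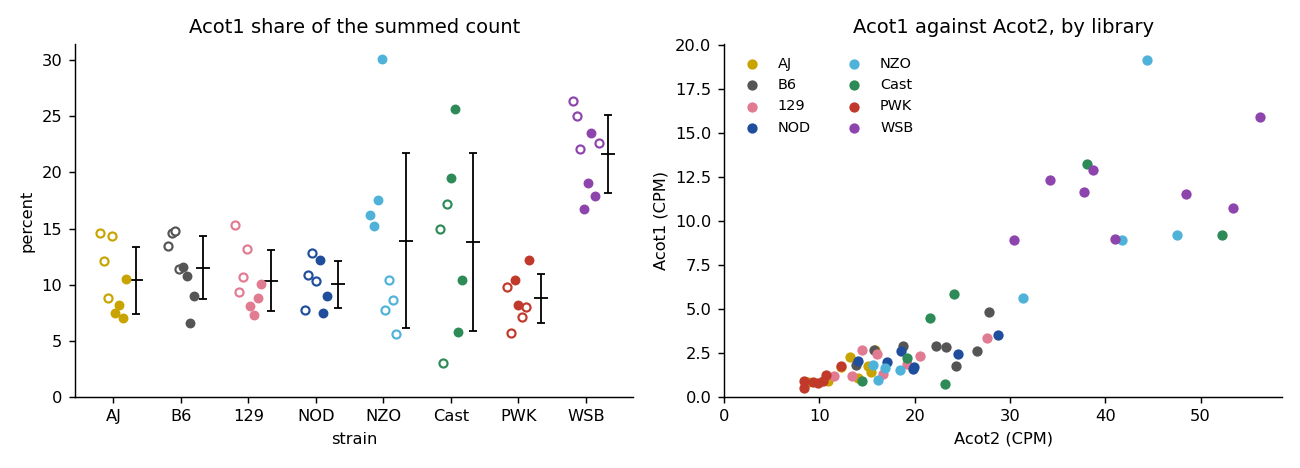
Left, the share of Acot1 in the summed count of Acot1 and Acot2 in each library, by strain, with mean and SD (open points more Xist, filled points more Ddx3y); right, Acot1 against Acot2 in CPM, a point per library. The WSB libraries hold shares of 16.7% to 26.4%, and NZO_8 has the highest Acot1, 19.1 CPM beside 44.4 CPM of Acot2.

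Ucp3 had the same strains at its ends as the thioesterases. WSB libraries ran from 111 over a median of 214 to 261 CPM, and PWK libraries from 59.0 over 85.5 to 101 CPM, with no overlap. The contrast with the other 7 strains was 0.69 ± 0.14 log2 units in WSB (adjusted p = 0.000108), -0.73 ± 0.17 in PWK (adjusted p = 0.000494) and -0.59 ± 0.16 in AJ (adjusted p = 0.00328). AJ held 91.8 ± 29.7 CPM (SD, n = 8) and included the lowest of all 61 libraries, at 52.2 CPM. NOD was the most even strain, from 135 to 175 CPM with a coefficient of variation of 8.36%, and at 157 ± 13.1 CPM it did not pass (0.29 ± 0.16, adjusted p = 0.189). The AJ call was lost among the libraries with more Ddx3y (-0.46 ± 0.20, adjusted p = 0.135), within a range of 0.000594 to 0.135 over all alternatives.

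In Cast, Ucp3 did not pass (0.29 ± 0.16, adjusted p = 0.103), and its libraries ranged from 70.1 to 250 CPM. Cast_6, second highest of the strain for the thioesterases, was its lowest for Ucp3. Without Cast_6 the Cast contrast was 0.42 ± 0.16 (adjusted p = 0.0206). Among libraries with more Xist it was 0.79 ± 0.18 (adjusted p = 0.000673) and among those with more Ddx3y -0.18 ± 0.20 (adjusted p = 0.473). With adipocyte and macrophage markers as covariates it was 0.42 ± 0.17 (adjusted p = 0.0288). NZO, which did not pass either, was lower among the libraries with more Xist (-0.63 ± 0.18, adjusted p = 0.0115).

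Ucp2 was low in PWK and differed less among the other strains. PWK libraries held 5.72 to 13.9 CPM with a median of 7.36, and 5 of its 7 libraries were lower than any library outside PWK. The PWK contrast was -1.23 ± 0.21 log2 units (adjusted p = 2.86e-06). Cast (24.0 ± 8.34 CPM), WSB (23.8 ± 9.63) and AJ (23.3 ± 3.06) were called higher, by 0.51 ± 0.18, 0.50 ± 0.17 and 0.46 ± 0.17 (adjusted p = 0.0123, 0.0173 and 0.0347). The AJ and WSB calls were lost when marker sums entered the fit, and in other settings too. The AJ call was lost among the libraries with more Xist (0.52 ± 0.21, adjusted p = 0.0741). It was also lost among those with more Ddx3y (0.44 ± 0.23, adjusted p = 0.217), as was the WSB call (0.30 ± 0.23, adjusted p = 0.359). With summed adipocyte and macrophage markers as covariates, the AJ contrast was -0.05 ± 0.13 (adjusted p = 0.803) and the WSB contrast 0.15 ± 0.12 (adjusted p = 0.392), while 129 then passed at 0.73 ± 0.12 (adjusted p = 5.47e-06, range over alternatives 5.47e-06 to 0.982). AJ had the highest median of the macrophage sum, 227 CPM against 102 to 173 CPM in the other strains. WSB had the highest median of the lymphocyte sum, 19.7 CPM, with 3 libraries above 100 CPM. Without the 10 libraries whose lymphocyte markers exceeded 16 CPM, the WSB contrast was 0.13 ± 0.20 (adjusted p = 0.665), and without WSB_1 0.32 ± 0.18 (adjusted p = 0.158). The Cast call was lost without Cast_1 (0.36 ± 0.19, adjusted p = 0.108) and among the libraries with more Xist (0.37 ± 0.24, adjusted p = 0.208). NZO, not called over all libraries, was higher among those with more Ddx3y (0.70 ± 0.22, adjusted p = 0.0337) and without the lymphocyte-high ones (0.39 ± 0.15, adjusted p = 0.039). Both settings kept NZO_8, at 50.8 CPM of Ucp2 against 13.4 to 17.5 CPM in the other NZO libraries. Its lymphocyte sum of 15.7 CPM lay just under the limit of 16 CPM. Over all libraries but NZO_8, the NZO contrast was -0.16 ± 0.17 (adjusted p = 0.525). Over all alternatives the adjusted p ran from 0.000387 to 0.803 in AJ, 0.00211 to 0.665 in WSB and 9.03e-06 to 0.208 in Cast, whereas that of PWK stayed at 0.00134 or below. In bulk tissue, fewer cells of a type and less RNA per cell cannot be told apart.

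Angptl4 was highest in WSB, where the libraries ran from 16.6 over a median of 30.5 to 46.7 CPM. In AJ they ran from 5.02 over 7.48 to 13.9 CPM and in 129 from 6.46 over 8.71 to 14.6, neither reaching the lowest WSB library. The contrast with the other 7 strains was 1.30 ± 0.19 log2 units in WSB (adjusted p = 1.33e-07), -0.86 ± 0.23 in AJ (adjusted p = 0.00277) and -0.71 ± 0.23 in 129 (adjusted p = 0.016, where 11.4% of genes were lower). WSB also had the highest median of summed adipocyte markers, 719 CPM against 241 in 129 and 298 in AJ. Of the 8 genes in that sum, 7 were called higher in WSB (21.3% of all genes) and 1 lower (17.0% of all genes). The lower one was Lep (1.71 ± 2.51 CPM, -2.39, adjusted p = 0.000559). With adipocyte and macrophage markers as covariates, the 129 contrast was 0.04 ± 0.15 (adjusted p = 0.889, range over alternatives 0.00455 to 0.889), and it was also lost among libraries with more Ddx3y (-0.53 ± 0.26, adjusted p = 0.221). The AJ call was lost among those with more Xist (-0.67 ± 0.25, adjusted p = 0.056), while the WSB contrast stayed at 0.72 or above in every alternative tried (adjusted p at most 0.000127). Cast, at 19.1 ± 8.28 CPM, was called higher by 0.48 ± 0.22 (adjusted p = 0.0483), but 49 of 75 alternatives lost that call, with adjusted p from 0.0119 to 0.288. PWK, lower than the others for the remaining measures, did not pass for Angptl4 (13.2 ± 6.58 CPM, -0.14 ± 0.23, adjusted p = 0.676). Its 4 libraries with more Xist held 14.0 to 20.7 CPM and its 3 with more Ddx3y 4.42 to 9.23. Among the libraries with more Ddx3y, PWK was lower (-0.92 ± 0.31, adjusted p = 0.0314, range 0.0314 to 0.976 over alternatives) and NZO higher (0.88 ± 0.23, adjusted p = 0.0109, range 0.0109 to 0.925). These NZO libraries include NZO_8, at 35.9 CPM of Angptl4 against 12.1 to 17.6 CPM in the other NZO libraries. The median was higher in the libraries with more Xist in 7 of 8 strains, all but NZO, and the summed adipocyte markers were so in 6 of 8.

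**Figure D3:**
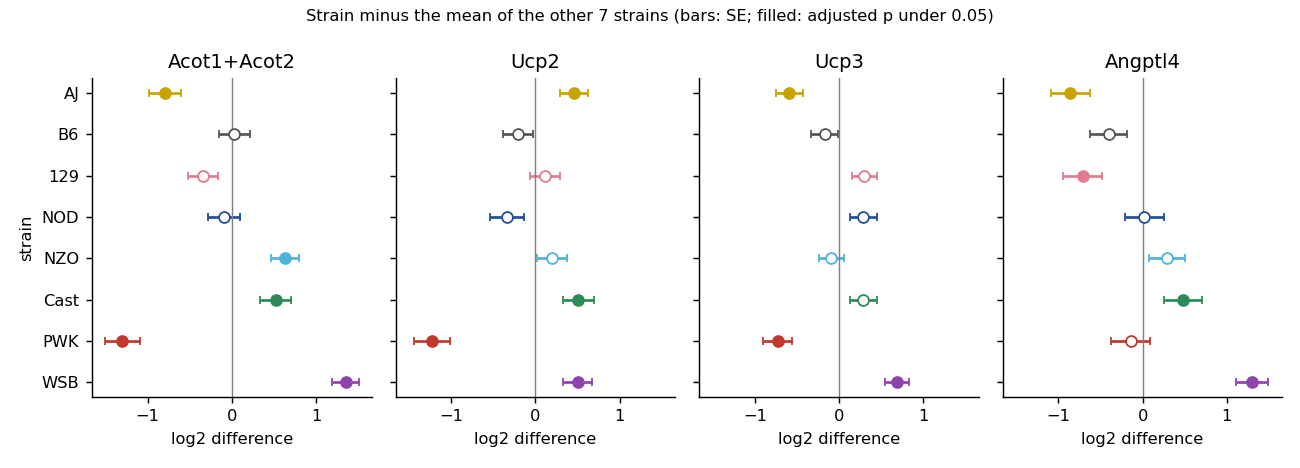
Difference of each strain from the mean of the other 7 strains, in log2 units with SE, for the 4 measures; filled points have an adjusted p under 0.05. WSB lies above 0 and filled in all 4 panels, PWK lies below 0 and filled in all but Angptl4, and B6 and NOD have no filled point.

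Ordered by geometric mean, the thioesterase sum fell from WSB (53.2 CPM) through NZO (30.5), Cast (29.5), B6 (23.7), NOD (22.1), 129 (18.8) and AJ (14.5) to PWK (10.7). Among neighbours in that order, AJ and PWK differed by an exact permutation test (adjusted p = 0.0284 over all pairs and measures), and WSB and NZO missed the threshold (adjusted p = 0.0601). For Ucp2 the order was AJ, Cast, WSB, 129, NZO, B6, NOD and PWK, from 23.1 to 7.92 CPM, and only the last neighbours differed (exact permutation test, adjusted p = 0.0182). For Ucp3 it was WSB, NOD, 129, Cast, NZO, B6, AJ and PWK, from 193 to 83.5 CPM, and no neighbours differed beyond their spread. For Angptl4 it was WSB, Cast, NZO, NOD, PWK, B6, 129 and AJ, from 30.2 to 8.0 CPM, with WSB above Cast (exact permutation test, adjusted p = 0.0355). Of 28 strain pairs, 16 differed for the thioesterases, 13 for Ucp2, 11 for Ucp3 and 11 for Angptl4. Pairs were tested for these measures only, so how many pairs differ for other genes is not known. PWK was below all 7 other strains for the thioesterases and for Ucp2, and WSB above all 7 for Angptl4.

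To see how the genes varied between libraries of the same strain, the strain mean was taken from each library's log2 CPM (n = 61 libraries, 34 relations computed, of which 12 passed by Pearson's r and 8 more by Spearman's rho alone). Of the 6 pairs among the 4 measures, 2 passed. Ucp2 followed Angptl4 (Pearson r = 0.49, permutation p = 0.00016, adjusted 0.00078; Spearman rho = 0.48, p = 0.00031, adjusted 0.0015), with r = 0.41 without the 2 most extreme libraries and 0.41 when libraries with more Xist and with more Ddx3y were centred separately. The thioesterase sum followed Ucp3 (r = 0.42, permutation p = 0.0089, adjusted 0.03; rho = 0.43, p = 0.0029, adjusted 0.009), with r = 0.53 without the 2 most extreme libraries. The r fell to 0.20 without NZO and to 0.19 with the separate centring. Cast_6, which stayed in these last 2 checks, deviated from its strain mean by 0.798 for the sum and by -1.046 for Ucp3. Each of the 2 relations was positive in 6 of 8 strains. The 2 most extreme libraries, here and below, were those farthest from the median of a single measure of the relation. That measure was Angptl4 or Ucp3 in these pairs and otherwise Pdk4, Cebpd or the marker sum, so libraries extreme in the other measure could remain. The other 4 pairs had r from 0.02 to 0.14 (permutation p from 0.42 to 0.89).

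The thioesterases and Ucp3 each varied with Pdk4, the kinase that shuts off pyruvate dehydrogenase and a standard marker of the fasting response. Ucp3 followed Pdk4 with r = 0.70 and rho = 0.68 (permutation p = 1e-05 for each, the smallest that 100000 permutations can give, adjusted 7e-05), positive within 8 of 8 strains. The r was 0.64 without the 2 most extreme libraries, 0.63 without NZO and 0.60 with the separate centring. The thioesterase sum followed Pdk4 with r = 0.64 (permutation p = 2e-05, adjusted 0.00011) and rho = 0.57 (p = 5e-05, adjusted 0.00028), positive in 7 of 8 strains, and with 0.60, 0.53 and 0.68 in the same 3 checks. It also followed Cebpd, a glucocorticoid response gene (r = 0.53, permutation p = 0.00044, adjusted 0.0019; rho = 0.42, p = 0.0034, adjusted 0.0096), with 0.44, 0.48 and 0.62. With the lymphocyte sum it had a negative relation (r = -0.30, permutation p = 0.014, adjusted 0.043; rho = -0.35, p = 0.0047, adjusted 0.011), with -0.23, -0.42 and -0.34.

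Ucp2 and Angptl4 varied with markers of other cell types. Ucp2 followed the summed macrophage markers (r = 0.79, rho = 0.76, permutation p = 1e-05 for each, adjusted 7e-05), positive in 7 of 8 strains, with 0.74, 0.74 and 0.80 in those checks. It also followed the lymphocyte sum (r = 0.67, rho = 0.66, permutation p = 1e-05 for each, adjusted 7e-05), with 0.63, 0.71 and 0.71, and the adipocyte sum (r = 0.33, permutation p = 0.016, adjusted 0.046; rho = 0.41, p = 0.0028, adjusted 0.009), with 0.29, 0.40 and 0.23. Angptl4 followed the adipocyte sum (r = 0.69, rho = 0.65, permutation p = 1e-05 for each, adjusted 7e-05), positive in 8 of 8 strains, with 0.63, 0.76 and 0.72, and the macrophage sum (r = 0.61, rho = 0.61, permutation p = 1e-05 for each, adjusted 7e-05), with 0.59, 0.56 and 0.53. Angptl4 and Pdk4 had r = 0.41 (permutation p = 0.0019, adjusted 0.0073; rho = 0.38, p = 0.0046, adjusted 0.011), with 0.33 without the 2 most extreme libraries and 0.20 with the separate centring. The adipocyte sum and the thioesterase sum had r = -0.29 (permutation p = 0.034, adjusted 0.083; rho = -0.37, p = 0.0072, adjusted 0.016), and r = -0.09 with the separate centring. By rho alone, Ucp3 also passed with Cebpd (rho = 0.45, adjusted permutation p = 0.0034), the adipocyte sum (-0.34, 0.023) and the lymphocyte sum (-0.32, 0.021). Ucp2 passed in that way with the ratio of slow to fast fibre markers (0.44, 0.0024) and Cebpd (0.35, 0.021), and Angptl4 with the lymphocyte sum (0.32, 0.023) and the fibre ratio (0.33, 0.021). Values of a library share its scaling and its dissection, whose part was not tested.

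**Figure D4:**
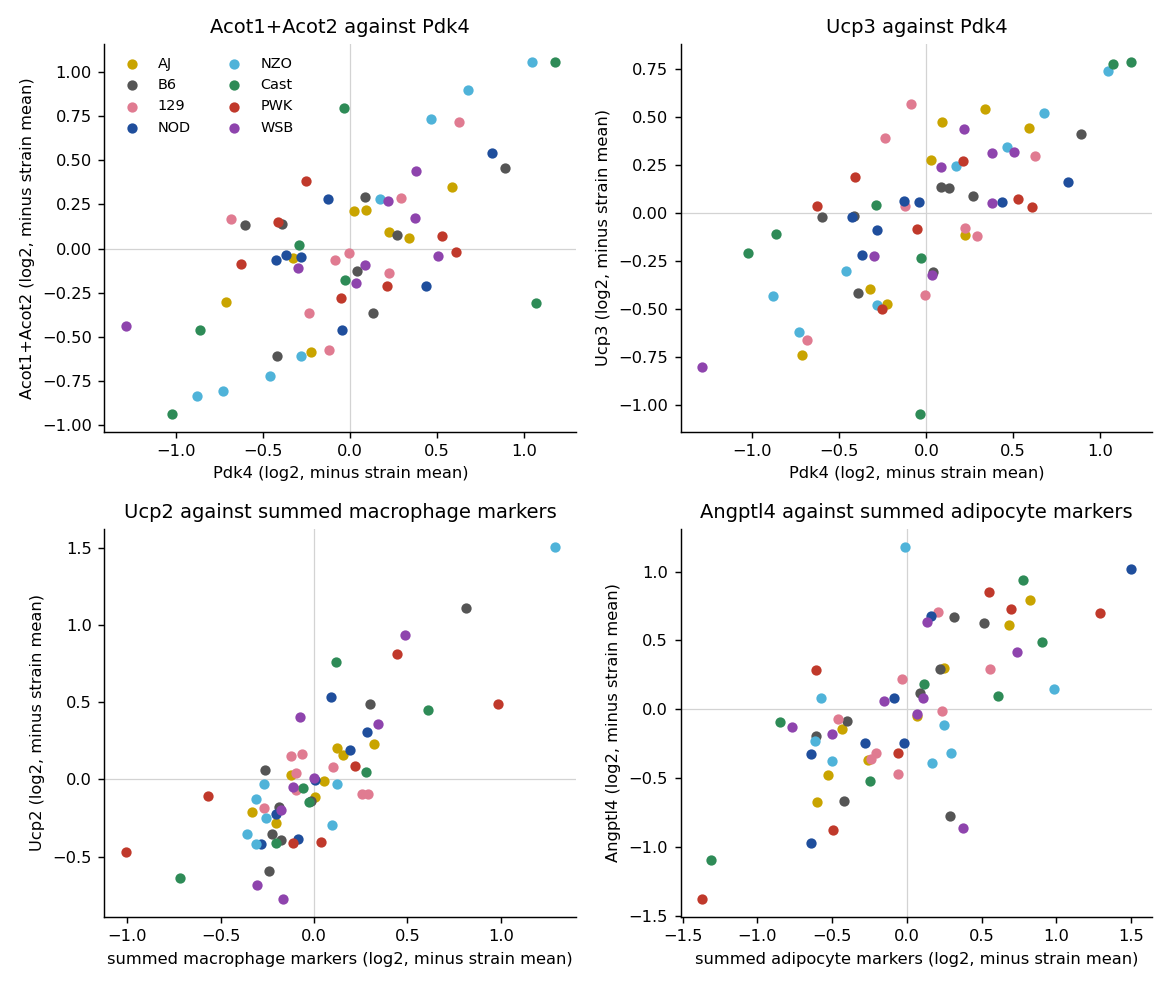
Log2 level in each library minus the mean of its strain, for Acot1+Acot2 and Ucp3 against Pdk4, Ucp2 against summed macrophage markers and Angptl4 against summed adipocyte markers; points are the 61 libraries, coloured by strain. The relations have Pearson r of 0.64, 0.70, 0.79 and 0.69, and the NZO point at the top right of the Ucp2 panel is NZO_8.

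The genes with the most alike pattern within strains, among 8808 genes with at least 5 CPM, differed from member to member. For the thioesterases they were Mlycd, which removes malonyl-CoA and so frees fatty acid entry into mitochondria (r = 0.79), the beta-oxidation enzymes Eci2 (0.76) and Acadl (0.74), and the mitochondrial carrier Slc25a34 (0.71). For Ucp3 they were Pdk4 (0.70), the autophagy kinase Ulk2 (0.65), Ccdc6 (0.61) and the lipid hydrolase Nceh1 (0.60). For Ucp2 they were genes of blood cells, the phosphatase Inpp5d (0.82), the lysozyme Lyz2 (0.80), the integrin Itgb2 (0.80) and the kinase Syk (0.77). For Angptl4 they were the adipocyte protease Cfd (0.77), the adenylyl cyclase Adcy5 (0.70), the glutamate transporter Slc1a3 (0.70) and the complement protease C1ra (0.69). Cfd is itself part of the adipocyte sum used above, and Lyz2 part of the macrophage sum. Over the 8 strain means, genes among the most alike were Cactin (0.95) and Snx19 (0.95) for the thioesterases, and Slc43a3 (0.96) and Ndor1 (0.94) for Ucp2. They were Ogfod1 (0.98), Ndufaf4 (0.98) and Rcan2 (0.97) for Ucp3, and Cln8 (0.96) and Psen2 (0.95) for Angptl4. With 8 points chosen from 8808 genes, such values describe the order of the strains and carry no test.

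Other genes of the same response were mostly lower in AJ and, when called, mostly higher in WSB. Of 34 other genes of the muscle PPAR and fasting response, 33 could be tested and 29 differed among strains, beside 85.5% of all genes. In AJ 21 of the 33 were lower and 0 higher (14.9% and 16.8% of all genes), with a median contrast of -0.38 log2 units against -0.02 over all genes. In WSB 18 were higher and 1 lower (21.3% and 17.0% of all genes, median 0.24 against 0.02), and in Cast 18 were higher and 3 lower (33.8% and 27.9%, median 0.25 against 0.04). Among only the libraries with more Ddx3y, Cast had 10 higher and 9 lower, and WSB 11 higher. Calls over all genes in WSB also fell there, to 3892 in both directions together, from 3561 higher and 2829 lower over all libraries. The share of all genes by direction is not given for that subset. PWK, lowest for 3 of the 4 measures above, had 4 higher and 8 lower of the 33, beside 20.6% and 20.3% of all genes (median -0.07 against 0.02). NZO had 8 higher and 1 lower (14.6% and 12.7%), NOD 6 and 1 (with 11.9% and 9.79% of all genes), B6 2 and 4 (15.0% and 11.2%), and 129 1 and 8 (14.2% and 11.4%).

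**Figure D5:**
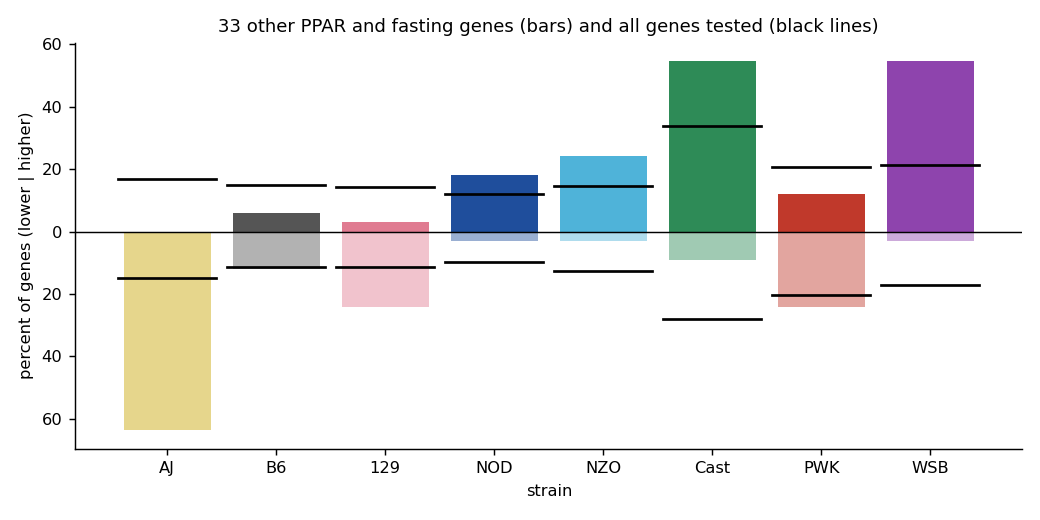
Share of 33 other PPAR and fasting response genes called higher (upward bars) or lower (paler downward bars) in each strain against the other 7, in percent, with the same share of all 16681 genes as black lines. AJ has 21 lower and 0 higher, and WSB and Cast have 18 higher each.

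Pdk4 itself was at 1580 ± 486 CPM in WSB (0.64 log2 units above the others, adjusted p = 0.00737) and 588 ± 161 CPM in AJ (-1.0, adjusted p = 0.000369). In PWK it was at 841 ± 274 CPM and did not pass (-0.41, adjusted p = 0.149). NOD, without a call for any of the member measures, was also higher in Pdk4 (1550 ± 553 CPM, 0.6, adjusted p = 0.0307). Ehhadh, the peroxisomal beta-oxidation enzyme, was higher in Cast (56.2 ± 43.6 CPM, 2.26, adjusted p = 1.84e-14) and in WSB (27.2 ± 9.06 CPM, 1.06, adjusted p = 4.7e-05), and lower in AJ (8.57 ± 2.84 CPM, -0.84, adjusted p = 0.00677). Pnpla2, the main triglyceride lipase, was higher in Cast (664 ± 323 CPM, 1.76, adjusted p = 1.09e-21), and its inhibitor G0s2 was lower there (3.57 ± 2.97 CPM, -1.54, adjusted p = 1.62e-05) and higher in PWK (21.0 ± 6.89 CPM, 1.37, adjusted p = 1.85e-06). The lipid droplet gene Cidec was higher in Cast (76.1 ± 67.3 CPM, 1.81, adjusted p = 7.96e-07). All 9 measured glucocorticoid response genes were higher in Cast, where 33.8% of all genes were called higher. Among them were Fkbp5 (351 ± 227 CPM, 2.66, adjusted p = 7.79e-17) and Cebpd (87.1 ± 84.4 CPM, 2.73, adjusted p = 1.02e-13). Mt1 (187 ± 225 CPM, 4.07, adjusted p = 1.69e-15) and Mt2 (168 ± 209 CPM, 3.90, adjusted p = 5.85e-13) had an SD above their mean. In WSB, Fkbp5 was higher (0.57, adjusted p = 0.0441) and the kinase gene Sgk1 lower (-0.52, adjusted p = 0.00205).

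Of 15 receptor and coactivator genes, 14 differed among strains, near the 85.5% of all genes. Ppara was higher in Cast (24.5 ± 12.1 CPM, 0.70, adjusted p = 4.66e-07) and WSB (23.7 ± 3.39 CPM, 0.65, adjusted p = 2.39e-06). It was lower in NZO (9.70 ± 2.02 CPM, -0.83, adjusted p = 3.41e-07). The thioesterase sum was high only in the 4 NZO libraries with more Ddx3y than Xist. Ppara ran from 6.69 to 9.99 CPM in those libraries and from 7.71 to 13.5 CPM in the 4 with more Xist. Ppard was higher in Cast (32.3 ± 9.66 CPM, 0.48, adjusted p = 1.1e-07) and lower in PWK (20.4 ± 1.29 CPM, -0.27, adjusted p = 0.00381). Pparg, the adipocyte receptor, was higher in WSB (8.84 ± 3.52 CPM, 0.88, adjusted p = 3.99e-05). The coactivator Ppargc1a was lower in PWK (34.7 ± 4.22 CPM, -1.16, adjusted p = 0.000114) and higher in NOD (129 ± 16.3 CPM, 1.01, adjusted p = 0.00013). Rxrg was lower in Cast (17.0 ± 9.14 CPM, -1.38, adjusted p = 7.71e-11) and higher in 129 (68.0 ± 8.08 CPM, 0.91, adjusted p = 3.27e-08), and Lpin1 was higher in Cast (753 ± 254 CPM, 1.06, adjusted p = 7.42e-16).

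Among the relatives of the members, 9 of 11 other thioesterases differed among strains, no larger a share than the 85.5% of all genes. Acot6 was at 6.61 ± 0.607 CPM in WSB (1.11, adjusted p = 1.64e-16) and 1.38 ± 0.244 CPM in PWK (-1.47, adjusted p = 1.29e-16), the same ends as the sum. It matched Acot1 at 93.8% over 468 bases and Acot2 at 94.2% over 451, and may share reads with those genes. Acot3, which matched Acot1 at 93.8% over 597 bases, was at most 0.949 CPM in any strain mean and did not pass (adjusted p = 0.472). Acot4 reached 1.2 ± 0.98 CPM in WSB (0.98, adjusted p = 0.0247). Acot11 was higher in WSB (28.3 ± 17.6 CPM, 1.38, adjusted p = 5.88e-14) and lower in NZO (4.43 ± 0.706 CPM, -1.67, adjusted p = 1.71e-12), Acot7 was lower in Cast (5.01 ± 0.654 CPM, -0.90, adjusted p = 1.21e-16), and Them4 was higher in WSB (0.45, adjusted p = 3.68e-06).

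Of 6 uncoupling protein relatives, 5 differed, also near the share of all genes. Ucp1, the uncoupler of brown fat, averaged 114 ± 124 CPM in WSB, 36.4 ± 43.0 in Cast and 9.72 ± 15.6 in PWK, against 3.36 ± 5.15 in AJ and at most 0.27 CPM in the other strain means. The summed brown adipocyte markers, which include Ucp1, ran from 125 to 542 CPM in WSB and from 81.4 to 131 CPM in B6. Most of the B6 sum was a single gene of the list, Cox8b, at 109 ± 16.9 CPM. Cox8b was at 120 ± 9.86 CPM in WSB and did not pass there (-0.04, adjusted p = 0.683). The part of the brown adipocyte markers in the WSB levels of the thioesterase sum, Acot11, Ucp2, Ucp3 and Angptl4 was not tested. The carrier Slc25a30 was higher in WSB (13.2 ± 7.10 CPM, 1.69, adjusted p = 1.35e-10), Slc25a27 was lower in PWK (3.24 ± 0.618 CPM, -0.96, adjusted p = 7.42e-09) and Slc25a5 was higher in Cast (52.9 ± 12.8 CPM, 0.56, adjusted p = 1.31e-10). Lpl, the enzyme that Angptl4 inhibits, was higher in Cast (904 ± 293 CPM, 0.49, adjusted p = 1.13e-05) and WSB (846 ± 91.2 CPM, 0.38, adjusted p = 0.000547) and lower in PWK (518 ± 80.1 CPM, -0.43, adjusted p = 0.000524). Of 11 angiopoietin-like genes and lipase partners, 7 differed, a smaller share than the 85.5% of all genes, among them Angptl2, higher in AJ (76.3 ± 12.1 CPM, 0.64, adjusted p = 0.00139), Angptl7, higher in Cast (90.2 ± 51.6 CPM, 0.94, adjusted p = 5.19e-05), and Angptl1, higher in NOD (12.2 ± 1.46 CPM, 0.55, adjusted p = 5.4e-05).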

How the data were processed

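RNA-seq libraries of skeletal muscle were assigned to strains by their titles. The authors deposited expected counts, unscaled read estimates of which 80.4% were whole, and variance-stabilised values on a log2 scale. Per the submitters' processing notes, the build was GRCm38 and DESeq2 was used, with aligner, counting tool, annotation and strand setting not given in the sources used here. As stated in the labels' protocols, polyadenylated RNA was selected and libraries were made with the KAPA mRNA HyperPrep kit. GRCm38 is the genome of B6, and whether reads of other strains mapped equally well was not tested.

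The design had assumed whole counts, so the expected counts were rounded. Acot1 and Acot2 were summed, and 16681 genes passing filterByExpr were fitted over 61 libraries with strain as the factor (edgeR 4.0.16, R 4.3.3, TMM, quasi-likelihood F test, 53 residual degrees of freedom). P-values were adjusted by Benjamini-Hochberg within each comparison, threshold 0.05. An SE is the absolute log2 difference over the square root of F. CPM used TMM-scaled totals, and means are given with SD over the libraries of a strain. Pairs of strains were compared by two-sided exact permutation tests of mean log2 CPM (28 pairs of each measure, adjusted together). Correlations used strain-centred values and 100000 two-sided permutations within strains, with 0.5 added to marker sums, Pdk4 and Cebpd before the log. Alternatives used DESeq2 1.42.0 and limma 3.58.1 as well. Near copies were searched with blastn 2.17.0 over GENCODE M21. No libraries had identical values (highest r between libraries of a strain 0.989). The fit was tested on simulated data.

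All members were named, with up to 4 genes of each list that passed, had a mean of at least 1 CPM and the largest range among strains, a few fixed genes (Pdk4, Lpl, Ppara, Ppard, Pparg, Ppargc1a, Acot3, Acot4, Acot6), and the genes most alike by r, some of which are not reported here. The members and lists were chosen with earlier results of these data known. The r without NZO or with libraries centred by strain and by Xist against Ddx3y, and settings restricted by Xist, Ddx3y or lymphocyte markers were added after the data were seen.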

Additional observations from a re-analysis of the deposited data

Results flagged for a closer look

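Among 32 groups (4 measures in 8 strains), 2 had a library that stood apart from its strain by Dixon's criterion on log2 CPM, where chance alone would mark about 1 group in 20. Both were NZO_8. Its Ucp2 was 50.8 CPM, against 13.4 to 17.5 CPM in the other 7 NZO libraries, a gap of 0.80 of the range. Its Angptl4 was 35.9 CPM, against 12.1 to 17.6 CPM, a gap of 0.66 of the range, with a limit of 0.526 for 8 libraries. NZO_8 also had the highest summed macrophage markers of the strain, 380 CPM against 121 to 169, and an Acot1 share of 30.1%, whereas its adipocyte sum of 425 CPM lay within the range of the strain. The part of the macrophage signal was not tested.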

How the results depend on the processing

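The among-strain call of all 4 measures held in each of the 14 alternative settings and 61 leave-one-out fits. DESeq2 size factors and the DESeq2 test kept all 16 strain contrasts that passed, and the leave-outs kept 13 to 16. Of the 16, 10 were kept among libraries with more Ddx3y (6 lost, 3 others gained), 11 among those with more Xist (5 lost, 2 gained), 12 with adipocyte and macrophage covariates (4 lost, 2 gained), 14 with hepatocyte, lymphocyte and keratinocyte covariates and 14 without lymphocyte-high libraries (1 gained). The remaining settings kept 15 or 16. The replicate numbers in the titles do not pair the libraries: 71 of 186 same-number pairs correlated above 0.1, the median r was 0.01, and 8 of 61 libraries correlated best with their own number. With the number as a replicate block, 15 contrasts were kept and the ranges were 2.25 (thioesterase sum), 1.55 (Ucp2), 1.19 (Ucp3) and 2.02 (Angptl4); Cast Angptl4 was lost (0.40, adjusted p = 0.101) and NOD Acot2 changed sign (0.01).

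Contrasts that passed and changed sign were NZO Acot1+Acot2 (-0.28), Acot1 (-0.92) and Acot2 (-0.19) among libraries with more Xist, and AJ Ucp2 (-0.05) and 129 Angptl4 (0.04) with adipocyte and macrophage covariates. The other changes of sign were in contrasts that did not pass. Among libraries with more Xist they were NOD Acot1+Acot2 (0.04) and Acot2 (0.08), NZO Ucp2 (-0.30) and Angptl4 (-0.20), PWK Angptl4 (0.19) and B6 Acot1 (0.24). Among those with more Ddx3y they were Cast Ucp3 (-0.18), NZO Ucp3 (0.33) and NOD Angptl4 (-0.32). B6 Acot1+Acot2 was -0.03 without lymphocyte-high libraries, -0.04 without B6_3 and -0.01 without B6_8. NZO Ucp3 was 0.04 with the fibre ratio and NZO Ucp2 -0.16 without NZO_8 (-0.16 to 0.27 over the leave-outs). NOD Angptl4 was -0.01 with Xist, -0.02 with the GT20 number, -0.03 with limma on the deposited log2 values, -0.09 without NOD_2 and -0.20 without NOD_3 (-0.20 to 0.14 over the leave-outs); PWK Angptl4 was 0.02 without PWK_4 (-0.27 to 0.02). The cause was not tested. AJ Ucp2 also lost its call without AJ_1, AJ_2, AJ_3, AJ_4 or AJ_8 (adjusted p up to 0.0752).

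Calls over all genes were fewer in some of the restricted settings, and the cause was not tested. Among libraries with more Ddx3y, 1922 genes passed in 129, 2530 in AJ, 2251 in B6, 1439 in NOD, 2313 in NZO, 3990 in PWK and 3892 in WSB; without lymphocyte-high libraries, 4253 passed in WSB. Acot1, at a median of 65.8 estimated counts per library, is the member with the least depth.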

Other observations

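Some libraries stood at the end of their strain for several of these genes. NZO_8 was the highest NZO library for the thioesterase sum (63.5 CPM), Ucp2 (50.8 CPM), Ucp3 (196 CPM) and Angptl4 (35.9 CPM), and Cast_1 was the highest Cast library for all 4, at 61.4, 38.8, 250 and 33.5 CPM. WSB_9 was the lowest WSB library for the thioesterase sum (39.3 CPM), Ucp3 (111 CPM) and Angptl4 (16.6 CPM), and held the strain's highest summed brown adipocyte markers, 542 CPM. Over all strains, the median of the thioesterase sum was higher in the libraries with more Ddx3y in 7 of 8 strains, and that of Angptl4 in the libraries with more Xist in 7 of 8. The labels give no sex, and the difference was not tested.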
